A study of Mus musculus with 2 samples.

Results

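Strong sharp distal sites are short stretches of open chromatin, away from gene starts, at which both libraries of the MN1 series had one of their highest-scoring peaks and no long block of accessible DNA. There were 1227 of them among 170217 distinct peaks of replicate 1 on the 19 autosomes and X. DNase-seq maps the DNA that the enzyme DNase I can cut in nuclei. It was run on the mouse line MN1, which the labels give as immortalized and of strain B6NCrl, in 1 group of 2 biological replicates with 1 library each. The labels give no treatment, tissue of origin, age or sex, so no condition could be compared, and the sites were instead set beside other peaks of the same libraries. The labels list a pair of sequencing instruments for replicate 2 and none for replicate 1.

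The members were chosen by measured values: the authors' peak score, the overlap of the replicates and the length of the hotspot. A hotspot is a wider region of raised DNase I cutting, and a peak is a summit within it. A site had to be a replicate 1 peak in the top 10% of scores, which meant a score of 110 or more, and had to overlap by at least 1 bp a replicate 2 peak in the top 10% of its own list, with a score of 107 or more. Its centre had to lie from 1 kb to 100 kb from the nearest start of a protein-coding transcript, and it could touch no hotspot of 1000 bp or more in either library. Of the 17429 replicate 1 peaks in the top 10%, 13748 overlapped a top peak of replicate 2. Most of these, 10085, lay within 1 kb of a start, while 3395 lay from 1 kb to 100 kb away and 268 farther. Long hotspots held 2168 of the 3395, which left the 1227 sites. They overlapped 1219 distinct replicate 2 peaks, so a few neighbouring sites share a partner. Score, overlap and hotspot length are therefore descriptions here and support nothing.

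Regulatory DNA becomes sensitive to DNase I where transcription factors displace nucleosomes, and sites away from promoters include enhancers, silencers and insulators. CTCF is a zinc finger protein of insulators and loop anchors. AP-1 is a dimer of Fos and Jun proteins at many enhancers. E-boxes are the short sequences of basic helix-loop-helix factors, a class that includes proneural and muscle-determining proteins as well as the widely expressed E-proteins.

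Sequences of 8 sites are shown as examples of the classes that the results turn on. They belong to the highest-scoring sites of their class, and each is the 150 bases of the replicate 1 peak on the plus strand of mm10, with matches to the motif of its class in capitals. The first pair holds a CTCF match, in each case near an end of the peak. Over all CTCF sites the median distance of the nearest match from the centre was 27 bp. One lies in an intron, 8271 bp upstream of the nearest start of Ddc, which encodes the enzyme that makes dopamine from its precursor (chr11:11844476-11844625), and the other in an intron 2428 bp downstream of a start of Dot1l, a histone methyltransferase (chr10:80757816-80757965).
Ddc site: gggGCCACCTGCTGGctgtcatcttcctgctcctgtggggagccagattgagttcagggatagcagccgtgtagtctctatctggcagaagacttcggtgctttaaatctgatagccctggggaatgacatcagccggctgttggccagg
Dot1l site: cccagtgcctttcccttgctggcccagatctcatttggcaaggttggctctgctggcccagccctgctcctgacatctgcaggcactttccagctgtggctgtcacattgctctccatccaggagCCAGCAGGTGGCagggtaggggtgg
The next pair holds the AP-1 motif TGACTCA, once at an intergenic site nearest to A4galt, a glycosyltransferase gene (chr15:83277496-83277645), and in 2 copies at an intergenic site nearest to Larp4b, an RNA-binding protein gene (chr13:9191316-9191465).
A4galt site: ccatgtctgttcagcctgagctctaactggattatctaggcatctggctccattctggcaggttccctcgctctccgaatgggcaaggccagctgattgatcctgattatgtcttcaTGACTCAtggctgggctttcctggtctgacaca
Larp4b site: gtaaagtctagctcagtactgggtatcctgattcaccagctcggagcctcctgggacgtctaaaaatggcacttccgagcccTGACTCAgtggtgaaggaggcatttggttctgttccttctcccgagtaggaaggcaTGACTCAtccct
Another pair holds the E-box CAGCTG, in 2 copies in an intron near Arid3a, a transcription factor gene (chr10:79934456-79934605), and in 1 copy at an intergenic site nearest to Ap1b1, a clathrin adaptor gene (chr11:4968536-4968685). The Ap1b1 site is also 20547 bp from the start of Nefh, the heavy neurofilament gene.
Arid3a site: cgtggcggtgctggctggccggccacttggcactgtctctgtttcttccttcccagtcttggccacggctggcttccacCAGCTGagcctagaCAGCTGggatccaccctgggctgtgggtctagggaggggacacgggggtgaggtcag
Ap1b1 site: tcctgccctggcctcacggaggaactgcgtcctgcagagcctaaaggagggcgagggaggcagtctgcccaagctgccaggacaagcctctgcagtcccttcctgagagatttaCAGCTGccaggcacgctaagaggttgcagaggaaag
The CRE motif TGACGTCA, bound by CREB and ATF proteins, stands in an intergenic site nearest to Rabepk (chr2:34802216-34802365). The site with the highest mean score percentile over both libraries, nearest to Alox5ap, which encodes the activating protein of 5-lipoxygenase, holds none of the 36 motifs searched and is shown without capitals (chr5:149229156-149229305).
Rabepk site: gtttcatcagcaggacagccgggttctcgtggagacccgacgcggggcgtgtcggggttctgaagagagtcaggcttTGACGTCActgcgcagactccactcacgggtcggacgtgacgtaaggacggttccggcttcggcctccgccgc
Alox5ap site: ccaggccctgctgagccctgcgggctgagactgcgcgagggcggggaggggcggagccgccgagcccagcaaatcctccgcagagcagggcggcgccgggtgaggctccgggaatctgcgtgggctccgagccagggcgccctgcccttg

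The scores of the sites began at the limits of the rule. Their replicate 1 score ran from 110 to 148 with a median of 122, and their replicate 2 score from 107 to 147 with a median of 116. The strong distal peaks in long hotspots had medians of 127 and 121, and strong promoter peaks 133 and 132. The 58815 shared distal peaks outside long hotspots that did not pass the score rule, named weaker sharp distal peaks below, had medians of 54 and 42. The score has no unit and no stated normalization, so it ranks peaks within a list only. At the edge of the rule, 42 sites had a replicate 1 score of exactly 110, and 35 peaks failed for a score of 109 alone. In replicate 2, 67 sites stood at 107 and 58 peaks failed at 106.

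**Figure D1:**
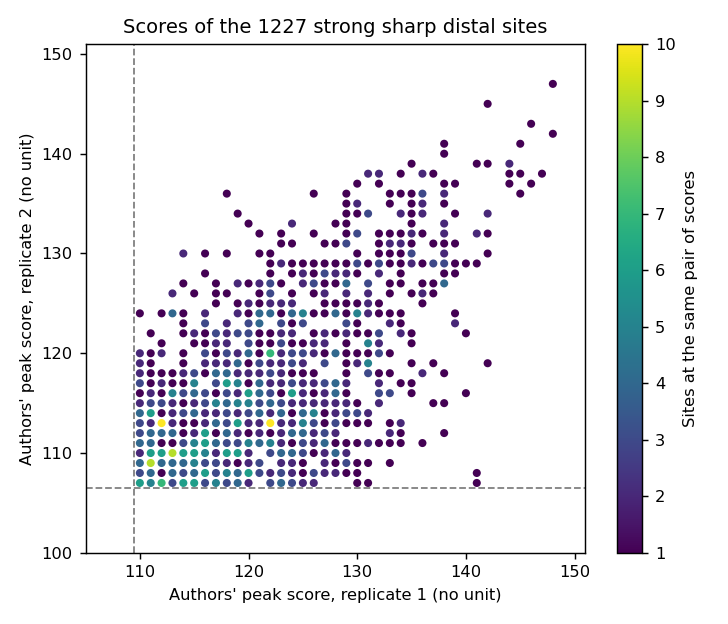
Authors' peak score of each strong sharp distal site in replicate 1 (horizontal axis) and of its best overlapping peak in replicate 2 (vertical axis), without unit; colour gives the number of sites at the same pair of scores, and dashed lines mark the lowest scores the rule admits, 110 and 107. The medians are 122 in replicate 1 and 116 in replicate 2. The site nearest to Alox5ap, at 148 and 147, has the highest pair, tied in replicate 1 with the site nearest to A4galt.

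The site nearest to Alox5ap scored 148 in replicate 1 and 147 in replicate 2. The site nearest to A4galt scored 148 and 142, and the Arid3a site 146 and 143. At Slit3, a guidance molecule of axons, an intronic site with an AP-1 match scored 142 and 145. The site nearest to Map1lc3b, an autophagy protein gene, scored 147 and 138, and the Rabepk site 144 and 139. All of these are among the 10 highest by mean score percentile over both libraries. The highest-scoring sites thus came from different classes: an AP-1 match, an E-box, a CRE or none of the motifs searched.

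A site was usually the sole summit of its hotspot. The hotspot had a median length of 694 bp in replicate 1 and 685 bp in replicate 2, and 79.4% (974) and 79.8% (979) of the sites were the only peak in it. The share was 19.7% and 22.0% for strong distal peaks in long hotspots, 19.2% and 20.9% for strong promoter peaks, and 83.5% and 85.8% for the weaker sharp distal peaks. Every site lay in a hotspot at the cap of the deposited −log10 q-value, 100, in both libraries. So did every strong distal peak in long hotspots and every strong promoter peak, against 55.6% and 49.4% of the weaker sharp distal peaks. No other replicate 1 peak was centred within 1 kb of 45.9% of the sites. That share was 10.7% for strong distal peaks in long hotspots, 56.2% for the weaker sharp distal peaks and 8.99% for strong promoter peaks. The limit on hotspot length sets much of this. At its edge, 5 sites had a longest hotspot of 999 bp and 1 peak was left out at 1000 bp. Of the 2168 excluded peaks, 361 were in a long hotspot in replicate 1 only and 225 in replicate 2 only.

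The summit fell at nearly the same base in both libraries. Peak centres lie on a grid of 20 bp in the deposited lists. At 48.7% of the sites (598) the centres were identical, and at 40.2% (493) they were 1 grid step apart, so 88.9% were within 20 bp. Identical centres were found for 36.8% of strong distal peaks in long hotspots, 31.7% of weaker sharp distal peaks and 33.8% of strong promoter peaks. Centres were over 60 bp apart at 1.79% of the sites and at 7.91% of the weaker sharp distal peaks. The rule asks for an overlap of 1 bp only, but it also used score and hotspot length. These differences between sets were not tested, and neither were those below, since peaks of 1 library are not replicates.

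The sites were split evenly between introns and the space between genes. Introns of protein-coding genes held 573 (46.7%), exons 69 (5.62%) and intergenic sequence 585 (47.7%). For weaker sharp distal peaks introns held 51.4% and intergenic sequence 42.6%, and for strong distal peaks in long hotspots the shares were 36.6% and 56.4%. The median distance to the nearest protein-coding start was 10906 bp, with quartiles of 4581 bp and 24430 bp, and 611 sites (49.8%) lay upstream of that start. Starts of genes that are not protein-coding were within 1 kb of 85 sites (6.93%). The share was 14.4% for strong distal peaks in long hotspots and 4.06% for weaker sharp distal peaks.

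In mean GC and CpG content the sites stood above weaker sharp distal peaks and below both strong distal peaks in long hotspots and strong promoter peaks. Their mean GC content was 57.6% ± 6.08 (SD over 1227 sites), against 48.2% in windows of the same width 1 kb to each side, 50.6% in weaker sharp distal peaks, 59.5% in strong distal peaks in long hotspots and 66.7% in strong promoter peaks. They held a mean of 4.54 CpG dinucleotides per 150 bp, against 1.98 in their flanks, 2.37 in weaker sharp distal peaks, 6.60 in strong distal peaks in long hotspots and 14.3 in strong promoter peaks. A minority was CpG-rich: 125 sites (10.2%) had 10 or more CpG, as did 1.32% of weaker sharp distal peaks, 24.9% of strong distal peaks in long hotspots and 78.7% of strong promoter peaks. The Alox5ap site printed above has 15 CpG and the Rabepk site 18, while the Dot1l site has none. Soft-masked repeats made up 4.93% of the bases of the sites and 25.95% of their flanks, and 60 sites (4.89%) had a masked base at the centre. Masked bases made up 5.22% of strong distal peaks in long hotspots, 10.4% of weaker sharp distal peaks and 4.15% of strong promoter peaks.

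Transcription factor motifs were searched as fixed letter strings on both strands within 75 bp of the centre, and the same search was made in the flanking windows and in the 3 comparison sets. A match is a description of sequence and does not show that the factor was bound. At least 1 of 4 motifs, CTCF, AP-1 (TGACTCA), the E-box CAGCTG and the E-box CAGATG, was in 651 sites (53.1%), against 20.99% of flanks. One of the 4 was in 486 sites, a pair in 147, 3 in 18 and all 4 in none. None of the 36 motifs was found in 304 sites (24.8%) or in 49.3% of flanks. The share was 28.5% in strong distal peaks in long hotspots, 29.5% in weaker sharp distal peaks and 36.0% in strong promoter peaks. Of the 36, 9 were in at least 1% of the sites at 2 times the share of the flanks or more.

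**Figure D2:**
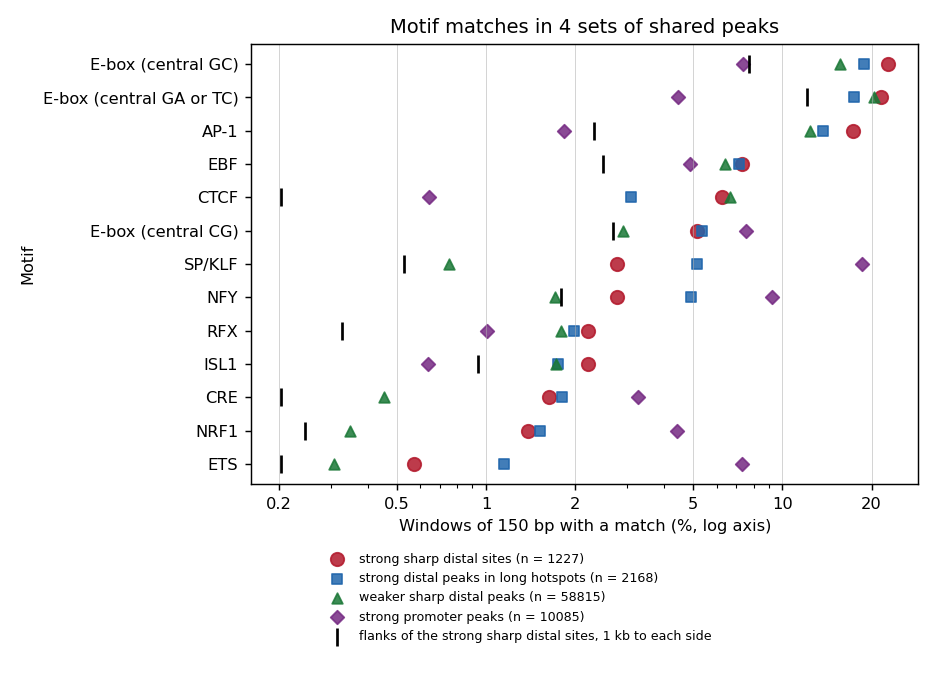
Share of 150 bp windows with a match to each of 13 motifs (horizontal log axis, percent) in strong sharp distal sites, in 3 comparison sets and in the flanks of the sites. The sites stand to the right of their flanks for AP-1 (17.4% and 2.32%), CTCF (6.28% and 0.204%) and the E-box with a central GC, CAGCTG (22.7% and 7.70%), and to the left of strong promoter peaks for SP/KLF (2.77% and 18.6%).

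E-boxes were the most common matches, and their core letters set them apart. CAGCTG was in 279 sites (22.7%), 2.95 times the share in flanks, and in 18.8% of strong distal peaks in long hotspots, 15.6% of weaker sharp distal peaks and 7.37% of strong promoter peaks. CAGATG was in 265 sites (21.6%), 1.78 times the flanks, but in 13.6% when the top 5% of each list was taken. Weaker sharp distal peaks were close to the sites, with CAGATG in 20.3%. Strong distal peaks in long hotspots had it in 17.4% and strong promoter peaks in 4.43%. CACGTG, the E-box of MYC and USF proteins, was in 63 sites (5.13%), 1.91 times the flanks. CAGGTG, the E-box of ZEB and SNAIL repressors and of some E-protein dimers, was in 126 sites (10.3%) and in 12.5% of flanks. Its ratio was 0.821, and the part of GC content in the E-box ratios was not tested. The letters beside the core also differed. CCAGATGG was in 63 sites, 6 times the share in flanks, and ACAGATGG in 19, 0.927 times. GCAGCTGC was in 35 sites, 7.78 times the flanks, and ACAGCTGA in 15, 1.11 times. In these counts a word and its reverse complement are 1 item.

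AP-1 matches were in 213 sites (17.4%), 7.47 times the flanks, and in 13.7% of strong distal peaks in long hotspots, 12.4% of weaker sharp distal peaks and 1.83% of strong promoter peaks. ATGACTCAT, a form with the letters of both sides paired, was in 18 sites and in 1 of 2454 flanks. Other paired forms were GTGACTCAC, in 25 sites and 10 times the flanks, and CTGACTCAG, in 16 and 4.57 times. GTGACTCAT, which is not paired, was in 25 sites and 1 flank. The form GTGACTCAG was in 40 sites, 7.27 times the flanks. Repeated copies were present: 28 sites (2.28%) had 2 or more AP-1 matches, as the Larp4b site above has, against 0.0407% of flanks. The E-box CAGCTG stood in 2 or more copies in 29 sites (2.36%; 0.448% of flanks), the Arid3a site among them. AP-1 and the E-boxes were paired at much the same rate whether or not the other was present: CAGCTG was in 23.5% of sites with AP-1 and 22.6% of sites without, and CAGATG in 21.6% of both.

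CTCF matches were in 77 sites (6.28%) and in 0.204% of flanks, a ratio of 30.8 that rests on 5 flanking windows. Weaker sharp distal peaks held it at 6.65%, strong distal peaks in long hotspots at 3.09% and strong promoter peaks at 0.645%. The match was on the plus strand at 43 sites and on the minus strand at 34, and the most frequent of its 15 spellings was in 9 sites. CTCF sites had shorter hotspots than sites with the other leading motifs and more often identical centres. The median hotspot was 582 bp in replicate 1 and 529 bp in replicate 2, against 687 bp and 674 bp for sites with AP-1. Identical centres in both libraries were found at 64.9% of CTCF sites, 52.6% of AP-1 sites and 48.0% of CAGCTG sites. AP-1 was in 6.49% of CTCF sites (5) and in 18.1% of the other sites. EBF, the motif CCCNNGGGA, was in 1 CTCF site and in 7.74% of the others. CAGATG was in 27.3% of CTCF sites (21) and in 21.2% of the others, and some spellings of the CTCF match contain CAGATG themselves.

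The share with CTCF was lower at higher scores and in longer hotspots. Among sites with a replicate 1 score of 110 to 119 it was 9.13% (45 of 493), at 120 to 129 it was 5.75% (28 of 487), and at 130 or more 1.62% (4 of 247). AP-1 over the same ranges was at 17.2%, 18.7% and 15.0%, and CAGCTG at 21.1%, 23.8% and 23.9%. By the longer of the 2 hotspots of a site, the CTCF share was 15.3% under 500 bp (23 of 150), 7.19% from 500 bp to 749 bp (33 of 459) and 3.40% from 750 bp (21 of 618). For CAGATG the order was turned, with 11.3%, 22.4% and 23.5%. Because score and hotspot length chose the sites, these are descriptions of the set with no test. The CTCF share therefore depends on the score limit: with the top 5% of each list it was 2.37%, and with the top 20% it was 11.5%.

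Across all shared distal peaks outside long hotspots, the strong sites and the weaker peaks together, the CTCF share rose and then fell with score. By replicate 1 score it was 2.59% at 20 to 39, 9.45% at 60 to 79, 12.9% at 80 to 99 (1061 of 8225), 11.8% at 100 to 109 and 1.48% at 130 or more (4 of 270). By replicate 2 score it was 4.10% at 20 to 39, 11.8% at 80 to 99 (626 of 5283) and 3.31% at 130 or more (4 of 121). With 1 mismatch allowed in the CTCF consensus the shape was the same by replicate 1 score, with 9.80%, 32.3% and 7.04% at 20 to 39, 80 to 99 and 130 or more. The highest bins hold few matches. CAGCTG was higher at 130 or more than at 20 to 39 in both libraries, with 22.6% and 14.4% by replicate 1 score and 24.0% and 14.2% by replicate 2 score. AP-1 was at 15.6% and 12.6% in the same bins by replicate 1 score and at 14.9% and 11.4% by replicate 2 score, where it was 19.05% at 120 to 129. CAGATG was lower in the top bin than in bins below it, with 24.9% at 120 to 129 and 18.5% at 130 or more by replicate 1 score, and 23.5% at 110 to 119 and 14.0% at 130 or more by replicate 2 score. Mean CpG number rose over the same bins of replicate 1, from 2.05 to 4.87 per 150 bp, and its part in the CTCF trend was not tested.

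**Figure D3:**
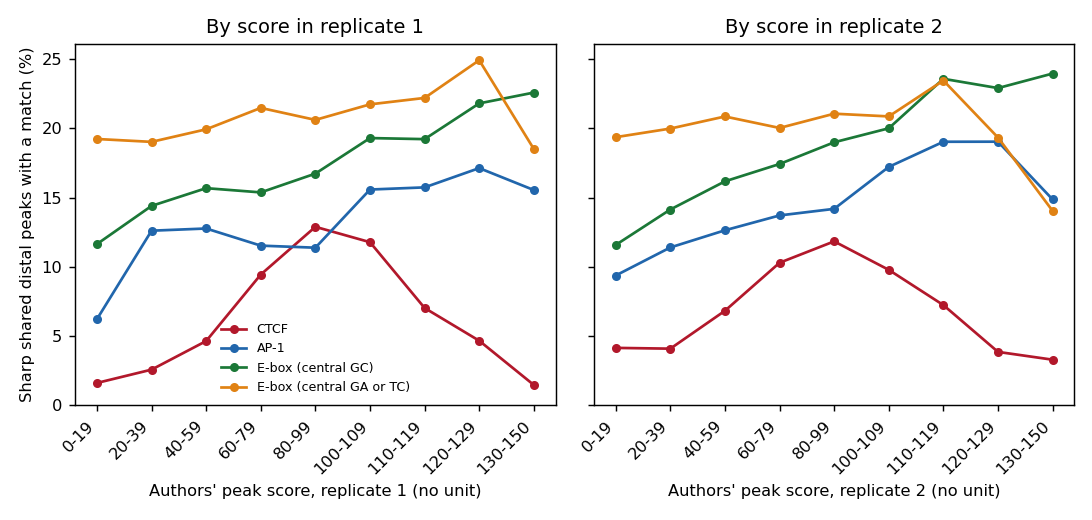
Share of shared distal peaks outside long hotspots with a match to CTCF, AP-1 and a pair of E-boxes (vertical axis, percent) by bins of the authors' peak score in replicate 1 (left) and replicate 2 (right), strong sharp distal sites and weaker peaks together. The CTCF line is highest at scores of 80 to 99 in both panels (12.9% and 11.8%) and low at 130 or more (1.48% and 3.31%), while the line of CAGCTG, the E-box with a central GC, is highest in the upper bins.

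Matches were most frequent close to the summit. In bins of 50 bp round the centre, AP-1 was in 7.42% and 7.17% of sites in the bins just left and right of it and in 1.14% and 0.489% of sites from 200 bp to 250 bp to the left and right. CTCF was in 2.20% and 3.10% in the same central bins. The nearest AP-1 match was within 25 bp of the centre in 107 of its 213 sites (50.2%), the nearest CTCF match in 38 of 77 (49.4%) and the nearest CAGCTG match in 114 of 279 (40.9%). Only matches within 75 bp of the centre entered these shares. Part of each would lie within 25 bp if matches were placed evenly, and that part was not computed. E-boxes stood on a higher level away from the summit than AP-1, as the plot of matches by distance shows.

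**Figure D4:**
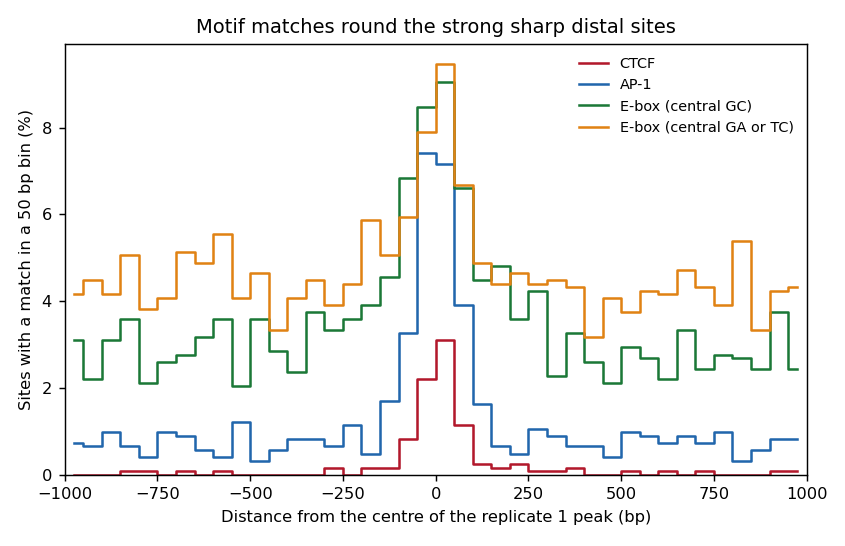
Share of strong sharp distal sites with a match to each motif in 50 bp bins (vertical axis, percent) by distance from the centre of the replicate 1 peak (horizontal axis, bp, plus strand to the right). All 4 lines are highest within 50 bp of the centre, where AP-1 reaches 7.42% and CTCF 3.10%.

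Rarer motifs were in smaller groups of sites. CRE was in 20 sites (1.63%), 8 times the flanks, and in 0.452% of weaker sharp distal peaks and 3.25% of strong promoter peaks. Strong distal peaks in long hotspots had CRE in 1.80%, 11.1 times their own flanks. RFX, the motif GTTNCCATG of factors of cilia genes, was in 27 sites (2.20%), 6.75 times the flanks. It was in 1.98% of strong distal peaks in long hotspots and 1.79% of weaker sharp distal peaks. The highest-scoring RFX site was nearest to Ezh2, the Polycomb methyltransferase, with scores of 138 and 141, and the next nearest to Nfix, a nuclear factor I gene, with 138 and 129. EBF was in 90 sites (7.33%), 2.95 times the flanks, NRF1 (GCATGCGC) in 17 (1.39%), and SP/KLF (GGGGCGGGG), which is common at promoters, in 34 (2.77%). In strong distal peaks in long hotspots EBF was at 7.15%, NRF1 at 1.52% and SP/KLF at 5.17%. In weaker sharp distal peaks they were at 6.40%, 0.347% and 0.748%. AGATAAG, the motif of GATA factors, was in 23 sites (1.87%), 1.35 times the flanks, and 73.9% of these were intergenic. ISL1 (CTAATGG), the motif of a LIM factor of motor and sympathetic neurons, was in 27 sites (2.20%), 2.35 times the flanks. Strong distal peaks in long hotspots had it in 1.75% and weaker sharp distal peaks in 1.72%. The full palindrome of NFI was in no site and no flank, and PHOX2 was in 4 sites. Homeodomain (TAATTA), FOX (TGTTTAC), TEAD (GGAATGT) and RUNX (TGTGGTT) motifs were less frequent than in flanks, with ratios of 0.759, 0.564, 0.625 and 0.765. The flanks have a lower GC content, as given above, and its part in these ratios was not tested.

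Every 8-letter word in the sites was also counted, without a list of factors. Such a word can be part of a searched motif. The word given below at 84 sites and 6 times the flanks fits the first 8 letters of the CTCF consensus. The part of CTCF matches in the word counts was not tested. The most frequent among words at 3 times the flanks or more was GTGACTCA, an AP-1 form, which was in 91 sites (7.42%), 10.1 times the flanks, with CTGAGTCA in 82 and CAGCTGCC in 76. Many of the frequent words held neither AP-1 nor CAGCTG: CAGCCAGC was in 84 sites, 4.2 times the flanks, CCAGCAGG in 84, 6 times, CTGCTGGC in 79, 5.10 times, and CTGGCTCC in 77, 4.53 times. Among words in at least 10 sites, CTGGCCGC was in 23 sites and 1 flank.

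The sites were spread over many genes. They were nearest to 1021 protein-coding genes, of which 870 had 1 site, 119 had 2, 20 had 3, 11 had 4 and 1 had 15. Gse1, a chromatin-associated protein gene on chromosome 8, was the gene with 15. Its sites ran from 120216936 to 120559925 and all lay in introns of protein-coding genes, all but 1 of them within the annotated span of Gse1. Their scores were 115 to 141 in replicate 1 and 107 to 136 in replicate 2. None had a CTCF match, 1 had AP-1, 4 had CAGCTG and 2 had CAGATG. The locus was dense in every set: 17 strong distal peaks in long hotspots, 70 weaker sharp distal peaks and 7 strong promoter peaks were also nearest to Gse1.

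The genes with 4 sites each had varied functions. Slit3, the axon guidance ligand, had 4 sites within its annotated span, with replicate 1 scores of 127 to 142. Sv2c, a synaptic vesicle protein, had scores of 112 to 134, Nav1, a neuron navigator protein, 110 to 122, and Casz1, a zinc finger factor, 117 to 135. Crb2, a polarity protein, and Cdh15, a cadherin of muscle, also had 4. So did Taok3, Cxxc5, Trim7, Irf2bp2 and Cerk. The 20 genes with 3 sites included Apol7a, Sik1 and Ddc. The Ddc sites scored from 118 to 142 in replicate 1 and from 108 to 132 in replicate 2. A CTCF match was in 2 of the 3, and the higher-scoring one is printed above.

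Of 12 gene lists, written from textbook knowledge, most had few members with a site within 50 kb of the start. Here the start was the outer end of the annotated span of the gene, so distances can differ from those to the nearest start. Over all protein-coding genes the share was 9.52% (2071 of 21755), with a median of 0 sites. Cell cycle genes had 5 of 12. A site with scores of 122 and 126 lay 3586 bp from the start of Ccnd1, cyclin D1. Ccne1, cyclin E1, had 2, at 144 and 138 for the stronger. E2f1 had a site at 126 and 114, Cdk2 at 110 and 115 and Mcm2, a replication helicase subunit, at 112 and 113. The Cdk2 site is nearest to Dgka, the Mcm2 site to Podxl2 and the lower-scoring Ccne1 site to Uri1. Pan-neuronal genes had 4 of 20. Nefh had 2, scoring 138 and 140 for the Ap1b1 site above and 133 and 136 for the other. A site within 50 kb of Tubb3, the neuronal beta-tubulin, scored 141 in replicate 1 and 108 in replicate 2, among the wider gaps between the libraries. Vamp2, a synaptic vesicle protein, had 3, of which 2 overlap each other, and Syp, synaptophysin, had 1, in an exon 41440 bp from its start where Magix is the nearest gene. Every site counted for these 4 genes is nearest to another gene: Ap1b1 for Nefh, Def8 for Tubb3, Aurkb and Per1 for Vamp2 and Magix for Syp.

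The other lists had no more than 2 members with a site. The sympathoadrenal list had 2 of 18, Ddc among them, with a site 3527 bp from its start at 118 and 108. No motor neuron gene of 18 and no blood gene of 12 had a site. Among glia and neural crest genes 2 of 12 had a site, Erbb3 among them, and among epithelial genes 2 of 10, the neighbours Krt8 and Krt18, which share a site. Housekeeping genes had 1 of 12, Actb with 3. Mesenchymal (Col1a1), skeletal muscle (Myog) and endothelial (Egfl7) genes had 1 of 12, 1 of 12 and 1 of 10, and pluripotency and germ line genes 1 of 10 (Esrrb). A site within 50 kb can be nearest to another gene: that counted for Myog is nearest to Adora1 and that for Erbb3 to Rps26. The lists are small, and no list was tested.

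Sites were unevenly spaced along the chromosomes, which together held 4.66 of them per 10 Mb. Of 1207 pairs of neighbouring sites the median gap was 354580 bp, and 27 pairs were within 1 kb, 101 within 10 kb and 360 within 100 kb. The median gap was shorter than even spacing at that density would give, and the spacing was not tested.

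The share of distal peaks that were sites differed between chromosomes. Over all, 1.69 of 100 shared distal peaks at 1 kb to 100 kb were strong sharp sites. Chromosome 15 had 3.03 (106 sites), chromosome 8 had 2.36 (102), chromosome 10 had 2.29 (97) and chromosome 11 had 2.07 (124), while chromosome 16 had 0.722 (14), chromosome 14 had 0.975 (25) and X had 1.06 (12). Strong distal peaks in long hotspots followed the same chromosomes at the ends, with 5.54 on chromosome 15, 5.17 on chromosome 8 and 1.39 on chromosome 16, against 2.99 over all. The median score of all shared distal peaks was 67 and 54 in replicates 1 and 2 on chromosome 15, 67 and 53 on chromosome 8 and 49 and 33 on X, against 59 and 46 over all. Strong promoter peaks were also above their overall level of 32.6 per 100 shared promoter peaks on chromosome 15 (37.6) and chromosome 8 (37.3) and below it on X (19.4), but not below it on chromosome 16 (33.7). Without the sites nearest to Gse1, chromosome 8 held 7.18% of the sites in place of 8.31%. The number of copies of each chromosome in MN1 was not measured, and its part in these values was not tested.

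**Figure D5:**
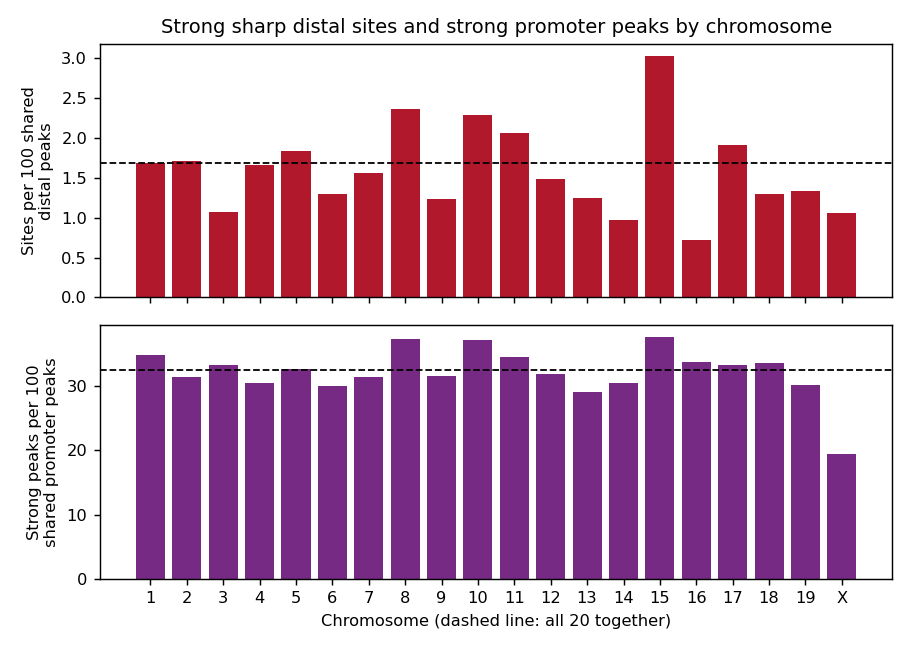
Strong sharp distal sites per 100 shared distal peaks (upper bars) and strong promoter peaks per 100 shared promoter peaks (lower bars) on each chromosome, with the value over all chromosomes as a dashed line. Chromosome 15 has the highest upper bar, 3.03 against 1.69 over all, and X the lowest lower bar, 19.4 against 32.6.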

How the data were processed

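DNase-seq of 2 MN1 libraries was used as deposited, on assembly mm10. The authors' lists hold peaks of 150 bp with a score without unit (1 to 150), and hotspots with a q-value on the −log10 scale (lowest 1.30, capped at 100 for values above 6). Per the notes deposited with them, each list was derived from 1 library, without pooling. Which aligner and caller made them is not given in the sources used here. Read depth is unknown, so no interval was computed. Repeated entries (43 and 20) were removed. The top 10% of scores was taken over distinct peaks of the autosomes and X.

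Distances to the nearest start came from 93145 protein-coding starts of GENCODE M21, and sequences from GRCm38, the same assembly as mm10. For the gene lists 1 start per gene was used, at the outer end of its annotated span. Scripts used Python 3.11.15, numpy 2.4.6, pandas 2.3.3, pysam 0.24.0 and matplotlib 3.10.9, and the overlap, distance and motif steps were tested on simulated data. Sites with 1 group and 2 libraries allow no comparison between conditions, so no test was run.

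The members, motifs and gene lists were chosen with earlier results of these data known. Named sites were the 5 highest by mean score percentile in each motif class, and named genes the 15 nearest to most sites and list genes with sites within 50 kb. The bins of score and hotspot length, the 8-letter words singled out by ratio and the sites of other genes named for a value were chosen after seeing the data. A few list genes with sites are not reported here.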

Additional observations from a re-analysis of the deposited data

How the results depend on the processing

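The size of the set followed the limits of the rule. With the top 5% of scores there were 169 sites, of which 4 had a CTCF match, 26 an AP-1 match and 40 no listed motif. With the top 20% there were 6325, with 725, 955 and 1611. With hotspots under 750 bp there were 609 sites, 110 with AP-1 and 152 with no listed motif, and with a longer limit, 1.5 times the rule's, 2261, 397 and 565. Leaving out a replicate, so that the other library alone chose the sites, gave 2007 to 2674 sites, 128 to 146 with CTCF, 370 to 429 with AP-1 and 508 to 709 with no listed motif. With 1 mismatch allowed, 226 sites had a CTCF match. The share with AP-1 stayed between 13.0% and 19.5%, with CAGCTG between 16.5% and 27.2% and in introns between 42.0% and 48.4%, while CAGATG ran from 13.6% to 25.8% and CTCF from 2.37% to 18.4%. Other overlaps, start definitions and motif windows, and leaving out the sites nearest to Gse1, an alternative added after seeing the data, kept these 4 counts within 1.5 times. No paired analysis was possible because there is 1 group. Both libraries came from 1 line, and read depth is unknown.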
